A study of Mus musculus with 4 samples.

Results

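Extracellular vesicles are membrane particles that cells release, and exosomes are the class of them that forms inside endosomes. The 37 genes described here encode the machinery that makes and releases such vesicles and the proteins that mark them. They were listed by name from known roles, with earlier results of these data already known, and 36 of them had a row in the deposited tables, which held 24473 genes with FPKM values (fragments per kilobase of gene model, scaled to library size) and 55401 with counts. Vamp7 was not analysed here. The 36 genes were measured by RNA sequencing in 4 libraries of BV-2, a microglial line from mouse that grows without limit in culture. All 4 libraries came from cells given lipopolysaccharide (LPS, a bacterial cell wall component) at 100 ng/mL for 24 h, so no group without LPS was compared. The 2 control libraries carry the genotype label WT and the titles sh c1 and sh c2, and the 2 others carry the label SIX2 knockdown and the titles sh s1 and sh s2. SIX2 is a homeobox transcription factor, and the series title ties it to microglial polarisation and to a microRNA carried by exosomes. Vector, clone and culture of origin are not given in the sources used here, and a p-value here therefore speaks only of variation among 4 libraries, possibly technical.

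In the endosomal route, the ESCRT complexes bend the endosome membrane inward and cut off small vesicles, and the ATPase VPS4 then takes the complexes apart. Another route joins syndecans, syntenin and the ESCRT partner ALIX, and yet another uses ceramide made by a sphingomyelinase. Tetraspanins, flotillins and chaperones travel in the vesicles, RAB GTPases move the endosome to the cell surface, and SNARE proteins fuse it with the plasma membrane. Microglia release such vesicles, and their cargo is studied as a signal to neurons.

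The libraries held 61 to 75.7 M counts, at about 4 counts per sequenced fragment. Six2 itself had a count of 0 in all 4 libraries, so neither the knockdown nor the labels could be checked on it. Of 12 microglia and macrophage markers, Cx3cr1 and P2ry12 were near 0, with Cx3cr1 at 0.0505 to 0.165 FPKM and P2ry12 at 0 to 24 counts, whereas Cd68 was at 443 to 485 FPKM and Tyrobp at 404 to 433 FPKM. Levels of 7 of the 12 were lower in both knockdown libraries than in both controls (23.8% of all genes tested were lower in this way, in CPM) and levels of 2 were higher. Aif1 had 11.8 and 14.0 FPKM in control libraries and 5.57 and 6.64 FPKM with the knockdown, Adgre1 had 71.3 and 76.9 FPKM and 45.6 and 48.1 FPKM, and Tmem119 had 10.2 and 8.83 FPKM and 5.69 and 4.67 FPKM. The sum of all 12, mostly Cd68 and Tyrobp, moved less, with a summed level of 1080 and 1130 FPKM in control against 1030 and 1010 FPKM in knockdown libraries. The part of this shift in the values below was not tested.

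The level of the vesicle genes in BV-2 cells was high for most and near 0 for one branch. A mean of at least 10 FPKM was reached by 27 of the 36 genes (75%), against 18.6% of all genes in the table. The 6 genes at or above 100 FPKM were the chaperones Hspa8 and Hsp90aa1, the tetraspanin Cd63, the ESCRT-III subunit Chmp4b, the late endosome GTPase Rab7 and the small GTPase Arf6. At the other end, Rab27a, Rab27b and Sytl4 had at most 12 counts in every library. For 145 of the 147 listed genes for which it could be computed, markers included, the gene length behind the FPKM was a near-constant multiple of the summed length of all annotated exons, and for Vps37a and Tspan4 it was longer. This scaling can place a gene with long alternative ends too low, so the order between genes holds only on that scale.

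**Figure D1:**
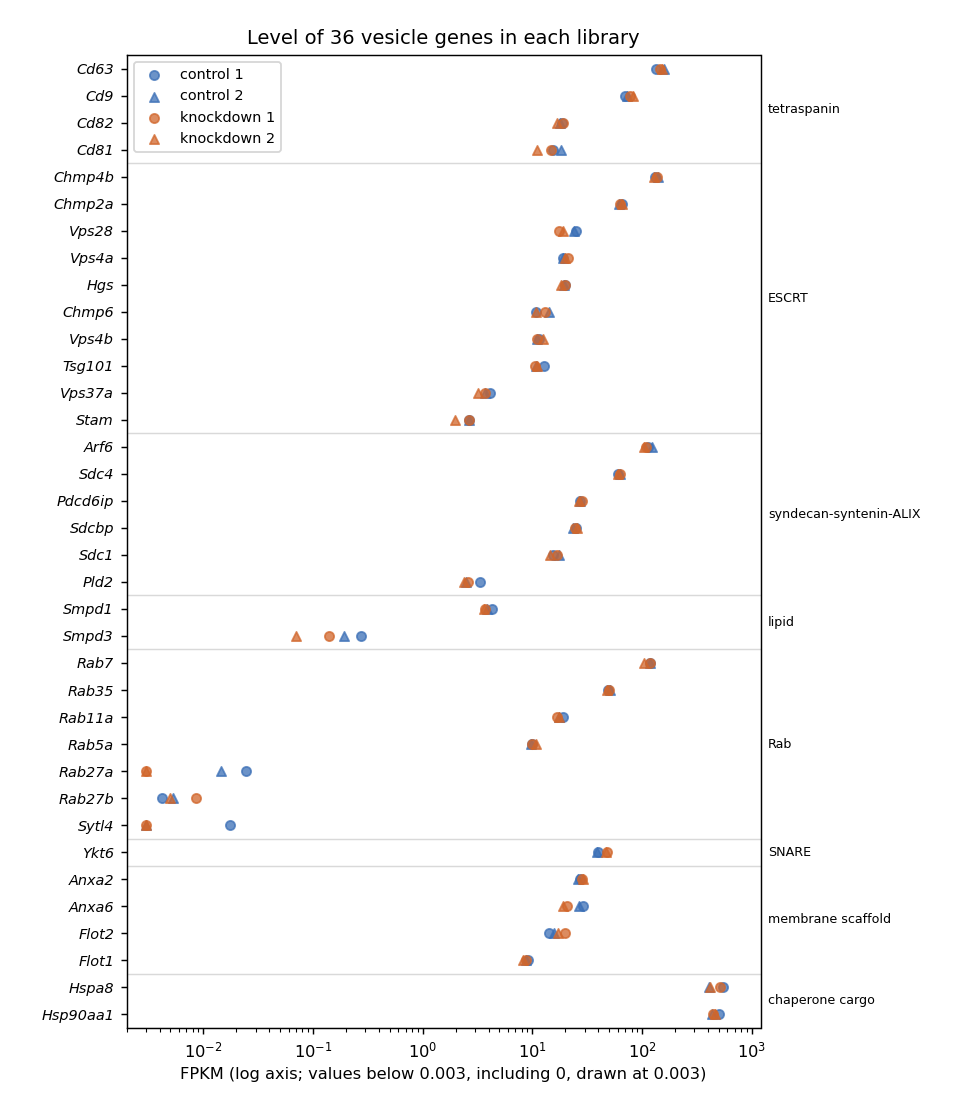
FPKM (log axis) of the 36 vesicle genes with values, grouped by role, with 1 point for each library (blue control, orange knockdown, circle replicate 1, triangle replicate 2; values of 0 are drawn near the left edge). Most genes sit above 10 FPKM with the 4 points close together, while Rab27a, Rab27b, Sytl4 and Smpd3 sit below 1 FPKM.

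Promoter windows show the start sites of genes from both ends of this range. They run from 250 bases before to 50 after the start given by RefSeq (build GRCm38.p6), and 25 of the 37 genes had at least 1 entry, with 31 windows in all. Capitals mark CACGTG, the E-box core that is bound by TFEB and related regulators of endosome and lysosome genes. Ykt6 is shown because, of the genes with an entry, it had the lowest p in the test below. Rab5a and Pdcd6ip are shown because they are expressed and hold the E-box, and Rab27a because it was not detectable. Ykt6 lies at chr11:5955508-5955807 on the plus strand, Rab5a at chr17:53478984-53479283 on the plus strand, Pdcd6ip at chr9:113708210-113708509 on the minus strand and the second Rab27a window at chr9:73063898-73064197 on the plus strand.
Ykt6: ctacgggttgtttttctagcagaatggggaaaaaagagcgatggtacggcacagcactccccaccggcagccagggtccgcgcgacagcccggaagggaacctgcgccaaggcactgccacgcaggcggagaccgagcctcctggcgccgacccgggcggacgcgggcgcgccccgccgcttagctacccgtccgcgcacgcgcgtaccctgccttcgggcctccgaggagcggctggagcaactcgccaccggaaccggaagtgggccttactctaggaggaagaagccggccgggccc
Rab5a: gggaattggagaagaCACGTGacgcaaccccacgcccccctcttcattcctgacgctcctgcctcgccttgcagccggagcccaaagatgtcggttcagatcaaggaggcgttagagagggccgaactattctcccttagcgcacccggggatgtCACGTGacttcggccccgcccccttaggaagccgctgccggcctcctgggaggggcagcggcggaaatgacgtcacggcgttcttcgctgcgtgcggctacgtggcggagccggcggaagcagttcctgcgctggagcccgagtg
Pdcd6ip: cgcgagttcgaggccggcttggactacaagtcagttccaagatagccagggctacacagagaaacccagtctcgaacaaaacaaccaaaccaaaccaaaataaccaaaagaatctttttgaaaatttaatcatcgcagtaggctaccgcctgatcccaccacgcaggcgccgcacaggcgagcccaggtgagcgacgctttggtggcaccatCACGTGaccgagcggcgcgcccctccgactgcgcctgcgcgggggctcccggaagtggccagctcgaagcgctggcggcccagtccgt
Rab27a: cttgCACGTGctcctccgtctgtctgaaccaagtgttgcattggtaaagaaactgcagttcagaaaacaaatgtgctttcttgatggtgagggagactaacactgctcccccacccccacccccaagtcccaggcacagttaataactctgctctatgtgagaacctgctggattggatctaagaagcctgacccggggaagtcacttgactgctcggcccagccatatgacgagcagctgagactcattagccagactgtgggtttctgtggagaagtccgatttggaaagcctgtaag
Searched on both strands, CACGTG was in 3 of the 31 windows, those of Rab5a, Pdcd6ip and Rab27a, against 7.15% of the 32851 windows in the table. The longer form TCACGTGA, which contains it, was in the windows of Rab5a and Pdcd6ip, against 0.974% of all. The MEF3 sequence TCAGGTTTC, which SIX2 and its relatives bind, was in 0 of the 31 windows, against 0.429% of all. The member windows held a median of 18 CG dinucleotides, against 7 over all windows, with 36 in Ykt6 and 6 in the second window of Rab27a. The first Rab27a window, not shown, held 18, and the window of the abundant Cd63 held 6.

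Between the groups, 0 of the 33 genes that passed the filter on low counts changed at a Benjamini-Hochberg adjusted p under 0.05 by edgeR's quasi-likelihood test, against 0.953% of the 15733 genes tested (150 genes, 0.407% higher and 0.547% lower). At an unadjusted p under 0.05 there were 5 of 33 (15.2%), 3 higher and 2 lower in knockdown libraries, against 14.2% of all genes (7.52% higher and 6.7% lower). Both knockdown libraries lay on one side of both controls for 14 of the 33 (42.4%), 8 higher and 6 lower, against 47.6% of all genes (23.8% each way). Fitted values were above 0 for 14 of the 33, against 48.9% of all genes. The median log2 fold change, knockdown minus control, was -0.01, the same as over all genes. These shares lay near those of all genes. DESeq2, run as the other count test, called 3 of the 33 (Anxa6, Vps28 and Ykt6), against 801 genes in all (5.09%), and limma on log2(FPKM + 1) called 0 of the 33, against 0.0191% of all genes.

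The intervals, not adjusted for the number of genes, give the differences compatible with the spread among these 4 libraries. For the median gene the 95% interval reached 1.16-fold to either side of the fitted value. In 28 of the 33 the whole interval lay within 1.5-fold in either direction, and the 5 others were Anxa6, Vps28, Cd81, Flot2 and Smpd3. Smpd3 alone had an interval that reached past 2-fold. What the adjusted threshold could miss is a separate question: on simulated counts it recovered 26.9% of genes changed 1.5-fold and 77.6% of those changed 2-fold.

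**Figure D2:**
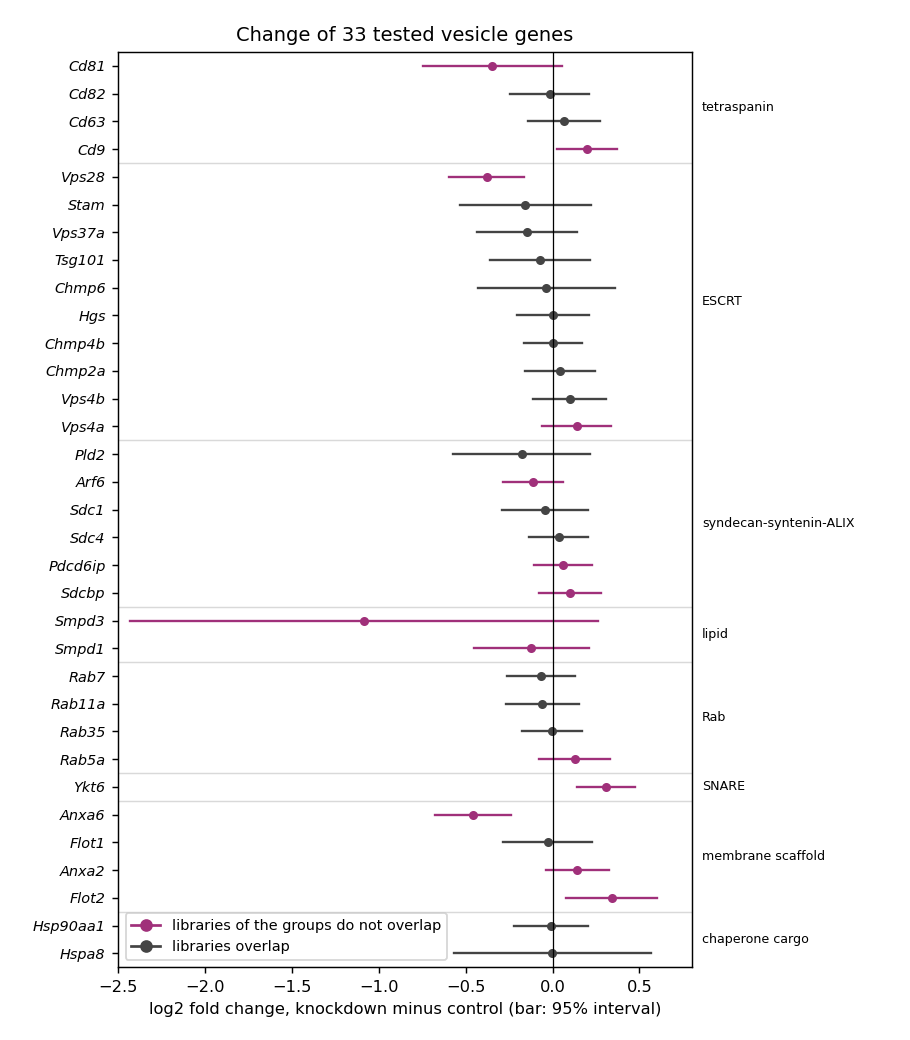
Fitted log2 fold change, knockdown minus control, with its 95% interval for the 33 vesicle genes tested, grouped by role (purple where the groups had no overlap, grey where they did). The intervals of Anxa6, Vps28, Ykt6, Flot2 and Cd9 leave out 0 before adjustment, and that of Smpd3 is the widest.

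The tetraspanins are membrane proteins with 4 spans that mark exosomes and sort cargo into them. Cd63, found in late endosomes, had 135 and 157 FPKM in control against 144 and 153 FPKM in knockdown libraries, so the knockdown values lay between the controls on that scale. On the TMM scale used for the test, where knockdown 2 was just above control 2, its log2 fold change was 0.06 ± 0.09 (SE, adjusted p = 0.810, edgeR). It made up 56.4% to 59.1% of the summed FPKM of the 4 tetraspanin members in each library. Cd9, found mainly at the cell surface, had 159 and 162 CPM (counts scaled to library size, with TMM factors) in control and 178 and 190 CPM in knockdown libraries. Both knockdown values of Cd9 lay above both controls, with a log2 fold change of 0.20 ± 0.07 (SE, adjusted p = 0.285, edgeR).

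Cd81 went the other way. It had 48.6 and 56.9 CPM in control against 47.6 and 35.4 CPM in knockdown libraries. Knockdown 1 lay just under control 1 and knockdown 2 well under the rest, and the log2 fold change was -0.35 ± 0.16 (SE, adjusted p = 0.422, edgeR). It was -0.15 without knockdown 2 and -0.58 without knockdown 1. Cd82, the remaining tetraspanin, had 60.7 ± 2.02 CPM in control against 60.0 ± 5.13 CPM in knockdown libraries (SD, n = 2 each), and its libraries overlapped. Cd81 is a gene with an antisense neighbour that shares exon sequence, as is Cd9, and the sources used here do not say if strand was used in counting.

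The ESCRT genes lay on both sides of 0. Of 10 tested, 5 had fitted values above 0 and 5 below, with a median log2 fold change of -0.02. Vps28, a core subunit of ESCRT-I (chromosome 15, 76622087 to 76626069, minus strand, GRCm38), had 63.8 and 59.7 CPM in control against 45.6 and 49.2 CPM in knockdown libraries. Both knockdown values were lower than both controls. The log2 fold change was -0.38 ± 0.09 (SE, 95% interval 0.662-fold to 0.892-fold, adjusted p = 0.137, edgeR), and adjusted p ranged from 0.0149 with DESeq2 to 0.376 without control 1. Vps28 shares 85 exon bases with Tonsl on the same strand.

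The other ESCRT-I members Tsg101 and Vps37a, which sit in the same complex as VPS28, had overlapping libraries. Tsg101, which binds ubiquitinated cargo, had 38.4 and 32.2 CPM in control against 32.6 and 34.4 CPM in knockdown libraries. Vps37a had 41.2 and 37.0 CPM in control against 38.0 and 32.5 CPM in knockdown libraries. In ESCRT-0, the cargo-sorting complex, Hgs had 64.4 ± 0.839 CPM in control against 64.4 ± 3.71 CPM in knockdown libraries (SD, n = 2 each). Its partner Stam had 24.7 and 24.1 CPM in control against 25.1 and 18.7 CPM in knockdown libraries, so that knockdown 2 alone stood low.

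ESCRT-III, which forms the membrane-cutting filament, was led by Chmp4b. It held 43.3% to 45.7% of the summed FPKM of the 10 ESCRT members, with 302 ± 11.6 CPM in control against 303 ± 10.7 CPM in knockdown libraries (SD, n = 2 each). The 95% interval of Chmp4b, 0.893-fold to 1.13-fold, was among the narrowest. Chmp2a and Chmp6 had fitted values of 0.04 and -0.04 on the log2 scale, and the libraries of both overlapped. The VPS4 ATPase has 2 genes: Vps4a had 52.9 and 52.8 CPM in control against 59.8 and 56.5 CPM in knockdown libraries, with no overlap and an adjusted p of 0.527 (edgeR). Vps4b, at 113 and 108 CPM against 111 and 126 CPM, overlapped.

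In the syndecan, syntenin and ALIX route none of the 6 genes reached an unadjusted p of 0.05. Sdcbp, which encodes the adaptor syntenin, had 189 and 175 CPM in control against 190 and 200 CPM in knockdown libraries. Pdcd6ip, which encodes ALIX, had 206 and 203 CPM in control against 220 and 206 CPM in knockdown libraries. The lower knockdown value of each lay less than 2 CPM above the higher control. Arf6 and Pld2 act on this route through phosphatidic acid at the endosome. Arf6 had 192 and 205 CPM in control against 187 and 181 CPM in knockdown libraries, with both knockdown values lower and a log2 fold change of -0.11 ± 0.07 (SE, adjusted p = 0.562, edgeR). Pld2, at 2.40 to 3.29 FPKM, was the least expressed gene of the route. The heparan sulfate carriers Sdc1 and Sdc4 had fitted values of -0.04 and 0.04 on the log2 scale and overlapping libraries.

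Of the 2 sphingomyelinase members, Smpd3 had few counts. Smpd3 encodes neutral sphingomyelinase 2, the enzyme usually tied to ceramide-driven exosome budding, and lies on chromosome 8 (106252548 to 106337988, minus strand, GRCm38). It had 121 and 68 counts in control against 62 and 27 counts in knockdown libraries, or 0.273, 0.191, 0.141 and 0.0698 FPKM. Smpd1, the lysosomal acid sphingomyelinase, had 4.30 and 3.83 FPKM in control against 3.67 and 3.62 FPKM in knockdown libraries. Both genes were lower in both knockdown libraries, as were 23.8% of all genes tested, in CPM. For Smpd1 the log2 fold change was -0.12 ± 0.14 (SE, adjusted p = 0.763, edgeR). Smpd3 shares 247 exon bases with Prmt7 on the opposite strand, whose reads cannot be told apart from its own if strand was not used. For Smpd3 the fitted ratio was 0.472 with a 95% interval of 0.185 to 1.2 (adjusted p = 0.460, edgeR), so neither equal levels nor a large difference can be told from these counts. Its log2 fold change was -1.08, and it was -0.68 without knockdown 2 and -1.65 without knockdown 1.

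Traces of neural transcripts, when summed, moved in the same order as Smpd3. Of 18 neuron, astrocyte and oligodendrocyte markers, levels of 12 were lower in both knockdown libraries than in both controls and levels of 0 were higher. The rest overlapped, with Aldh1l1 highest in knockdown 2 (0.065 FPKM). Of all genes tested, 23.8% lay lower and 23.8% higher in this way, in CPM. Those genes had passed the filter on low counts and the 18 were not filtered, so the shares are not like for like. Several of the 18 had few counts, at most 12 for Olig2 and 27 for Rbfox3 and Gad1 in any library. The summed level of the 18 was 4.00 and 3.62 FPKM in control, 2.10 FPKM in knockdown 1 and 0.272 FPKM in knockdown 2. In knockdown 2, 12 of the 18 were listed at 0, among them all 7 neuron markers, Snap25 and Syt1 included. Smpd3 is a gene that brain tissue also expresses, and the part of these traces in its values was not tested.

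**Figure D3:**
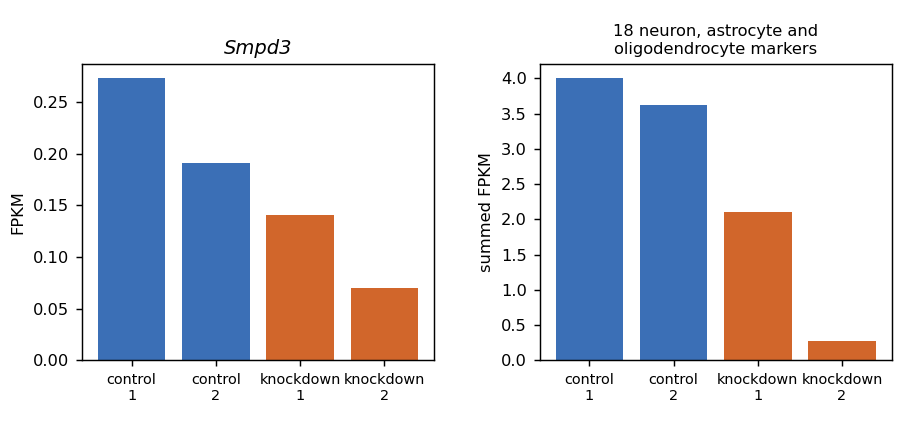
FPKM of Smpd3 (left) and summed FPKM of 18 neuron, astrocyte and oligodendrocyte markers (right) in each library, with bars from 0 (blue control, orange knockdown). Both are highest in control 1 and lowest in knockdown 2, where the marker sum is 0.272 FPKM.

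Of the RAB genes that carry endosomes, the early endosome gene Rab5a, the late endosome gene Rab7 and the recycling genes Rab11a and Rab35 were all expressed. Rab7 had 343 and 336 CPM in control against 346 and 303 CPM in knockdown libraries. Rab35, with 156 ± 3.28 and 155 ± 5.84 CPM (SD, n = 2 each), had a 95% interval of 0.885-fold to 1.13-fold. Rab5a had 57.2 and 55.8 CPM in control against 59.4 and 63.9 CPM in knockdown libraries, without overlap (adjusted p = 0.584, edgeR). Rab11a had 62.9 and 57.4 CPM against 56.9 and 58.6 CPM and overlapped. None of these 4 reached an unadjusted p of 0.05.

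The RAB27 branch, which docks endosomes at the plasma membrane in many secretory cells, was not detectable at this depth. Rab27a had 9 and 4 counts in control against 0 and 0 in knockdown libraries, and Rab27b had 4 and 4 counts against 8 and 4. Sytl4, a RAB27 effector, had 8 and 0 counts in control against 0 and 0 in knockdown libraries. A count of 12, taken as 3 fragments, is the most that a count of 0 allows, or 0.159 to 0.197 CPM, for counting error only. The 6 other RAB27 effectors of the wider list (Sytl1, Sytl2, Sytl3, Sytl5, Exph5 and Unc13d) also had at most 12 counts in each library, and 3 of them had 0 throughout. No fold is given for any of these 9 genes.

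The SNARE gene Ykt6 (chromosome 11, 5955693 to 5967780, plus strand, GRCm38) encodes a lipid-anchored fusion protein that exosome release depends on in several cell types. It had 130 and 127 CPM in control against 160 and 158 CPM in knockdown libraries. Replicates lay close together and the groups stood apart. The log2 fold change was 0.31 ± 0.07 (SE, 95% interval 1.10-fold to 1.39-fold, adjusted p = 0.124, edgeR), and adjusted p ranged from 0.00461 with DESeq2 to 0.429 without control 2. It passed the threshold in DESeq2 alone of the 13 other fits.

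Among the membrane scaffold genes, Anxa6 had the lowest p of all 33. Annexins bind phospholipids in a calcium-dependent way, and annexin A6 is found on endosomes and in released vesicles. Anxa6 (chromosome 11, 54979108 to 55033445, minus strand, GRCm38) had 94.2 and 84.8 CPM in control against 67.5 and 62.6 CPM in knockdown libraries. Both knockdown values were lower than both controls, and the log2 fold change was -0.46 ± 0.09 (SE, 95% interval 0.624-fold to 0.847-fold, adjusted p = 0.0969, edgeR). Over the 13 other fits its adjusted p ran from 0.0017 (DESeq2) to 0.353 (without knockdown 2), and it was 0.0502 with no filter on low counts.

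Anxa2, the other annexin member, had 112 and 106 CPM in control against 119 and 122 CPM in knockdown libraries, on the other side of the controls from Anxa6 (adjusted p = 0.464, edgeR). The flotillins scaffold lipid rafts. Flot2 had 42.7 and 47.2 CPM in control against 61.2 and 52.6 CPM in knockdown libraries, without overlap, with a log2 fold change of 0.34 ± 0.11 (SE, adjusted p = 0.245, edgeR). Its partner Flot1, which forms joint complexes with it, had 28.9 and 28 CPM in control against 28.7 and 27.0 CPM in knockdown libraries and overlapped. The summed level of the 4 scaffold members stayed between 73.2 and 79.4 FPKM in every library.

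**Figure D4:**
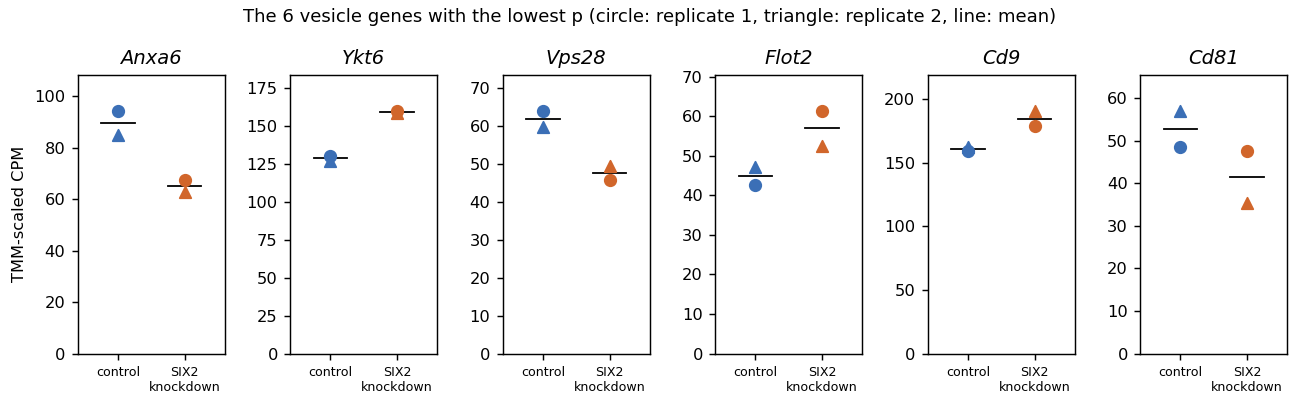
TMM-scaled CPM in each library (circle replicate 1, triangle replicate 2, line mean, axes from 0) for the 6 vesicle genes with the lowest p. Anxa6, Vps28 and Cd81 are lower and Ykt6, Flot2 and Cd9 higher in the knockdown libraries. The groups do not overlap in any panel, but the 6 were picked by p from these same values. Groups did not overlap for 47.6% of all genes tested. None of the 6 passed the adjusted threshold in edgeR.

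The chaperone genes Hspa8 and Hsp90aa1, whose proteins are common vesicle cargo, were the most abundant of the 36. Hspa8 had 2616 and 1900 CPM in control against 2494 and 2017 CPM in knockdown libraries, so that replicate 1 was the higher in each group. The group means were 2258 and 2255 CPM, and the 95% interval ran from 0.675-fold to 1.48-fold. Hsp90aa1 had 2173 and 1872 CPM against 1953 and 2067 CPM and overlapped. Reads of Hspa8 can be shared with 6 near-identical gene models, mostly unnamed, which together held 14.0% as many counts, and those of Hsp90aa1 with 3 that held 4.75%.

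A wider list of 116 other genes of the same roles was drawn up by known function. Of these, 99 passed the filter and 0 changed by edgeR, with 23 (23.2%) at an unadjusted p under 0.05, 11 higher and 12 lower, against 14.2% of all genes. DESeq2 called 7 of the 99 (Anxa5, Hsp90ab1, Rab10, Rab31, Sdc3, Smpd4 and Vti1a), against 5.09% of all genes, and limma on log2(FPKM + 1) called 0. Groups stood apart without overlap for 55 of the 99 (55.6%, against 47.6% of all genes), and the median log2 fold change was -0.04. With no filter on low counts edgeR called 2, Rab31 and Sdc3, against 1.3% of all genes. Without control 1 it called Chmp3 and Tspan14 instead, against 0.373% of all genes, and in both control 2 stood far below the 3 other libraries. These lists share roles with the 33 genes above, and a difference between the lists and all genes was not tested.

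Rab31, which drives an ESCRT-independent exosome route, had the lowest p of the wider list. It had 119 and 122 CPM in control against 156 and 157 CPM in knockdown libraries, with a log2 fold change of 0.37 ± 0.07 (SE, adjusted p = 0.0828, edgeR). The most abundant RAB gene of that list, Rab5c, had 134 and 216 CPM against 163 and 118 CPM, with the controls far apart. Among fusion genes, Vti1a had 40.8 and 38.2 CPM in control against 26.1 and 28.8 CPM in knockdown libraries (adjusted p = 0.102), and Vti1b had 87.8 and 107 CPM against 77.0 and 82.2 CPM (adjusted p = 0.305, both edgeR). Of the 21 wider SNARE genes tested, 4 reached an unadjusted p of 0.05 and all 4 were lower in knockdown libraries (19.0%, against 14.2% of all genes in either direction and 6.7% lower). Of the 21, 9 had fitted values above 0, and the median log2 fold change was -0.05.

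The wider syndecan, syntenin and ALIX genes lay to one side. All 8 tested had fitted values below 0, where 48.9% of all genes tested were above 0. Their median log2 fold change was -0.25, against -0.01 over all genes. The 8 include Ext1 at -0.0046, and Hpse and Pld1 with at most 0.906 and 2.39 CPM in any library. Of the 8, 2 reached an unadjusted p of 0.05, against 14.2% of all genes. Of the 6 members of this role, 3 had fitted values above 0 and 3 below. Sdc3, a syndecan also abundant in brain, had 39.8 and 44.1 CPM in control against 28.9 and 23.9 CPM in knockdown libraries (log2 fold change -0.67 ± 0.13, SE, adjusted p = 0.0904, edgeR). Sdc3 is a gene with antisense neighbours that share exon sequence, and the part of the neural traces in its values was not tested. Pdcd6, which encodes the calcium-binding partner of ALIX, had 93.4 and 85.4 CPM against 70.9 and 77.1 CPM (adjusted p = 0.251).

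Annexins were set side by side after their values were seen. Of the 8 in both lists, 7 had fitted values above 0, against 48.9% of all genes, and Anxa6 alone lay below, with a median of 0.20. Anxa11 was at 0.04, and its libraries overlapped. Anxa5, which binds exposed phosphatidylserine and was the most abundant annexin, had 202 and 201 CPM in control against 248 and 255 CPM in knockdown libraries (log2 fold change 0.32 ± 0.07, SE, adjusted p = 0.102, edgeR). Anxa1, Anxa3 and Anxa4 also had both knockdown values above both controls, with log2 fold changes of 0.46, 0.36 and 0.25. In all, 6 of the 8 annexins lay higher without overlap, against 23.8% of all genes. Since the genes were grouped in this way after the fact, the pattern is a description.

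In the remaining roles, the median log2 fold change of the wider ESCRT list was -0.05, and Snf8, an ESCRT-II subunit, had 74.0 and 75.8 CPM against 63.7 and 64.0 CPM (adjusted p = 0.265, edgeR). The most abundant gene of that list, Chmp1a, had 141 and 130 CPM against 133 and 119 CPM and overlapped. Among tetraspanins, Tspan31 had 84.4 and 80.2 CPM in control against 64.3 and 69.5 CPM in knockdown libraries, while Cd53, the most abundant, had 141 and 146 CPM against 153 and 171 CPM (adjusted p = 0.199 and 0.402). Of the lipid genes, the sphingomyelinase gene Smpd4 had 69.7 and 66.2 CPM against 83.2 and 85.3 CPM (adjusted p = 0.167, edgeR), opposite in sign to Smpd1 and Smpd3. Cers2, a ceramide synthase gene and the most abundant of them, had 209 and 203 CPM against 182 and 193 CPM. Hsp90ab1, the constitutive HSP90 gene, had 3096 and 2936 CPM in control against 3558 and 3669 CPM in knockdown libraries (log2 fold change 0.26 ± 0.07, SE, adjusted p = 0.180), whereas the inducible Hsp90aa1 had a fitted value of -0.01.

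**Figure D5:**
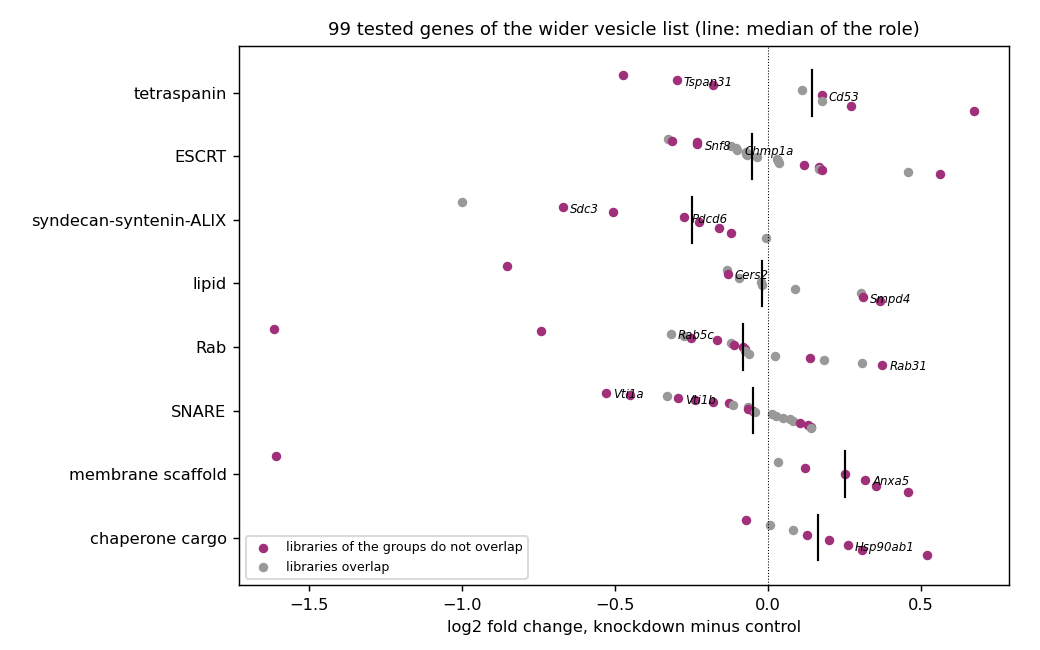
Fitted log2 fold change, knockdown minus control, of the 99 tested genes of the wider list by role, with 1 point for each gene (purple where the groups had no overlap) and a line at the median of each role. The syndecan, syntenin and ALIX genes all lie below 0 with a median of -0.25. Of the chaperone cargo genes, which include Lamp1 and Lamp2, 7 of 8 lie above 0 (median 0.16). Of the membrane scaffold genes 6 of 7 do (median 0.25), against 48.9% of all genes tested. Both chaperone members of the main list, not drawn here, had fitted values below 0. The other roles spread to both sides.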

How the data were processed

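RNA sequencing measured expression in 4 libraries (2 control, 2 SIX2 knockdown), grouped by the genotype labels. The deposited estimated counts were whole numbers per Ensembl gene, not normalised, and the deposited FPKM values are the authors' length- and depth-scaled values, per the file headers. Bowtie 0.12.2 and build mm8 are named per the submitters' processing notes, and no source used here names the counting program. Despite that build, 21839 of 24422 genes had GENCODE M21 (GRCm38) coordinates, and GRCm38 is used here. Among counts from 1 to 20, 42.1% to 47.2% were multiples of 4 and the rest were not. On that basis 1 fragment was taken as 4 counts and the floor as 3 fragments, which is an assumption. Another 12 columns match no labelled sample and were not used.

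The test was edgeR 4.0.16 in R 4.3.3 (filterByExpr, TMM scaling, robust quasi-likelihood F test, two-sided, Benjamini-Hochberg over all 15733 genes, no covariate). Rounding changed no count. Intervals are 95% from the fitted log2 fold change, its SE and the test's degrees of freedom. The chi-square per degree of freedom between replicates, in fragments, was 17.5 in the control group and 18.2 in the other, above counting error. Copies were sought with blastn 2.17.0 (95% identity over 300 bases). Tested on simulated counts for this comparison (15076 genes), the script recovered 26.9% of 67 genes at 1.5-fold, 77.6% of 67 at 2-fold and 98.5% of 66 at 4-fold. Of its 140 calls, 5 were false. The changed genes were drawn only from the more expressed ones, and each gene was given the spread typical of its level. Recovery for low genes such as Smpd3, or for genes with a larger spread, was therefore not measured.

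All members were described. From the wider list, the rule names each gene past the threshold (none passed) and, in each role, the gene with the highest FPKM and that with the lowest p. Rab10, Chmp3, Tspan14, Anxa1, Anxa3 and Anxa4 were chosen after their values were seen, and the RAB27 effectors by role. The members and lists were chosen with earlier results of these data known. Alternatives were DESeq2 1.42.0, RLE factors, other filters, no robust option, limma 3.58.1 on log2 FPKM with 1 or 0.1 added, a replicate block and leaving out each library; a crossed block was added after seeing the data.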

Additional observations from a re-analysis of the deposited data

How the results depend on the processing

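Over all genes the number changed moved from 150 to 801 (DESeq2), 297 (low counts kept), 7 without the robust option, 3 and 4 with limma on log2 FPKM with 1 and 0.1 added, and 0 with the replicate block, and ran from 41 to 112 without 1 library. The 33 vesicle genes held 0 calls in every other fit but DESeq2 (3). The wider list held 0 except under DESeq2 (7), with low counts kept (2) and without control 1 (2), so that leaving out a library gave 0 to 2. The cause was not tested. The labels give same-numbered libraries a shared number and nothing more, and whether they also shared a batch or culture was not tested. The correlation over 9982 genes of the difference between replicates in control with that in knockdown was -0.185. That value alone cannot tell if the libraries were paired. A crossed pairing, added after seeing the data, gave 119 calls over all genes, 0 among the vesicle genes and 0 in the wider list.

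Of the 33 genes, 16 kept their sign in all 13 other fits (12 for Smpd3), Anxa6, Vps28, Ykt6, Flot2, Cd9, Cd81 and Smpd3 among them, and 17 with fitted values of -0.18 (Pld2) to 0.06 (Cd63) changed it at least once. Without 1 library, log2 fold changes ran from -0.04 to 0.17 for Cd63, -0.11 to 0.07 for Cd82, -0.06 to 0.06 for Hgs, -0.38 to 0.04 for Stam, -0.19 to 0.06 for Tsg101 and -0.04 to 0.05 for Chmp4b. They ran from -0.01 to 0.10 for Chmp2a, -0.22 to 0.17 for Chmp6, -0.14 to 0.05 for Sdc1, 0.00 to 0.07 for Sdc4, -0.37 to 0.05 for Pld2 and -0.17 to 0.03 for Rab7. For Rab11a they ran from -0.12 to 0.01, for Rab35 from -0.04 to 0.04, for Flot1 from -0.08 to 0.02, for Hsp90aa1 from -0.11 to 0.10 and for Hspa8 from -0.21 to 0.25. Hgs and Chmp4b were also below 0 with DESeq2 (-0.01 and -0.01), RLE factors (-0.01 and -0.01), the stricter filter (-0.02 and -0.01) and limma with 1 added (-0.03 and -0.03) or 0.1 added (-0.03 and -0.03). Rab35 and Hspa8 gave 0.00 with no filter, and Hspa8 gave 0.01 with the replicate block and 0.01 with the crossed block. The small counts of Smpd3 limit it most: its value was -0.16 on the log2(FPKM + 1) scale, which shrinks low genes, and the stricter filter left it out.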
